A study of Mus musculus with 15 samples.

Results

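The stromal matrix genes are 10 genes of the interstitial matrix, namely the fibrillar collagen genes Col1a1, Col1a2, Col3a1 and Col5a1, the glycoprotein genes Fn1, Postn and Tnc, the elastin gene Eln, and the small proteoglycan genes Dcn and Lum. The list was set by gene symbol, with earlier results of these data known, and no measured value entered the rule. All 10 were found among the 15967 genes named on the array. All 10 also lay among the 9531 genes that passed the filter on dim probes. Kidneys of BALB/c mice were profiled on Illumina MouseRef-8 bead arrays. Each array was loaded with labelled RNA made by in vitro transcription from the total RNA of 1 sample. There were 5 arrays at embryonic day 16 (E16d), 5 at postnatal day 1 (PN1d) and 5 at postnatal day 7 (PN7d). The animals were untreated, the embryos are described as male, and no allele or agent was given to any group. The methods of the study speak of biological triplicates, whereas the labels give 5 arrays at each age. No source used here says whether an array held the kidneys of 1 animal or of several, or which arrays came from separate animals, and the p-values therefore reflect only how far these samples differ, which may be technical.

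Interstitial fibroblasts secrete these proteins into the space between tubules and vessels. Collagens I and III form the fibrils that carry tension, collagen V is built into the same fibrils and limits their width, and elastin lets vessels and tissue recoil. Fibronectin, periostin and tenascin-C link fibrils to cells and are prominent in tissues that are being built or repaired, while decorin and lumican bind the surface of collagen fibrils. In the embryonic kidney much of the interstitium derives from stromal progenitors that express Foxd1.

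The letters before the transcription start are shown for 3 of the genes. Col1a2 and Col3a1 were the pair of stromal matrix genes whose levels moved most alike from array to array, and Tnc was one of the genes that changed with age. Sequences of 250 bases before the annotated start come from RefSeq (GRCm38.p6), which matched 5 of the 10 genes. Those of Col1a2 (chr6:4505368-4505617, plus strand), Col3a1 (chr1:45311288-45311537, plus strand) and Tnc (chr4:64047016-64047265, minus strand) lie outside the gene. Capitals mark 3 promoter motifs, searched on both strands, which did not overlap each other. The first is the CCAAT box, whose letters are its name. The second is the TATA box, searched here in the form TATAAA. The third is the box bound by Sp1, named the GC box and searched here in the form GGGCGG.
Col1a2: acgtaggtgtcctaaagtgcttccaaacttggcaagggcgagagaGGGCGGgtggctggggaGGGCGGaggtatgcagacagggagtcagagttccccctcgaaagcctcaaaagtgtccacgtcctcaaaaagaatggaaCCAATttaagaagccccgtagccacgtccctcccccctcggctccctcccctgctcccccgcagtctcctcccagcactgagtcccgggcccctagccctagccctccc
Col3a1: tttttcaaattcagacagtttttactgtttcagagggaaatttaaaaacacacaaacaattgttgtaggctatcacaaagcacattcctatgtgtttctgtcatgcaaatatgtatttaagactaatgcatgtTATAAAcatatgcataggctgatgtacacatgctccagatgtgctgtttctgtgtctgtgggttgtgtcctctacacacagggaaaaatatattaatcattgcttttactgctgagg
Tnc: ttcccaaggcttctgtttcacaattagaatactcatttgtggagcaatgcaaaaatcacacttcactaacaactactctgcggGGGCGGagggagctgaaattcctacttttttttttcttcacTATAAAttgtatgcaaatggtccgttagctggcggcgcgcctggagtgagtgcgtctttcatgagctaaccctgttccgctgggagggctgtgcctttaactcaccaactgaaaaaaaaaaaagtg
The Col1a2 window held a CCAAT box and 2 GC boxes, and 62% of its bases were G or C. The Col3a1 window held 1 match to the TATA box, which began 117 bases before the annotated start, and neither of the other motifs. Of its bases, 35.2% were G or C. The Tnc window held 1 GC box and 1 match to the TATA box, which began 126 bases before the annotated start, and 44.8% of its bases were G or C. Among 32851 promoter windows of the same length, 33.8% held a CCAAT box, 12.4% a TATA box and 32.7% a GC box, and the median share of G and C was 52.4%. The pair that moved most alike therefore shared none of these 3 motifs in these windows, and a match in letters is not evidence of binding.

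The matrix genes did not move in 1 direction with age. At PN1d, 4 of the 10 genes differed from E16d, where 46.3% of all genes did. Of these, 2 were higher (Tnc and Eln) and 2 lower (Col5a1 and Lum), against 21.4% and 24.9% of all genes. At PN7d, 4 of the 10 differed from E16d, against 64.5% of all genes, 3 of them higher (Tnc, Eln and Dcn; 32.3% of all genes) and 1 lower (Col5a1; 32.2%). From PN1d to PN7d, 5 of the 10 passed the test, against 45.4% of all genes, 3 of them higher at the later age (Eln, Dcn and Lum; 24.1%) and 2 lower (Col5a1 and Tnc; 21.2%). Each of these shares lies near or below that of all genes. The remaining 5, Col1a1, Col1a2, Col3a1, Fn1 and Postn, passed in none of the comparisons, as did 25.4% of all genes. The test was limma over all 15 arrays with Benjamini-Hochberg adjustment over 9531 genes, and a gene counted as changed at an adjusted p under 0.05. The comparisons share arrays (those of E16d, PN1d or PN7d), so they are not independent of each other.
The median log2 fold change of the 10 genes was -0.08 for PN1d against E16d, 0.06 for PN7d against E16d and 0.07 for PN7d against PN1d, where the medians of all genes tested were -0.02, 0.00 and 0.01. Changes over 1.5-fold were found in 1, 2 and 2 of the 10 genes, against 8.76%, 20.5% and 7.87% of all genes. In these comparisons 2, 4 and 2 of the 10 genes had arrays of the compared ages that were fully separate, against 37.0%, 50.1% and 27.8% of the genes tested. In a whole organ, fewer cells of a type and less RNA per cell cannot be told apart.

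**Figure D1:**
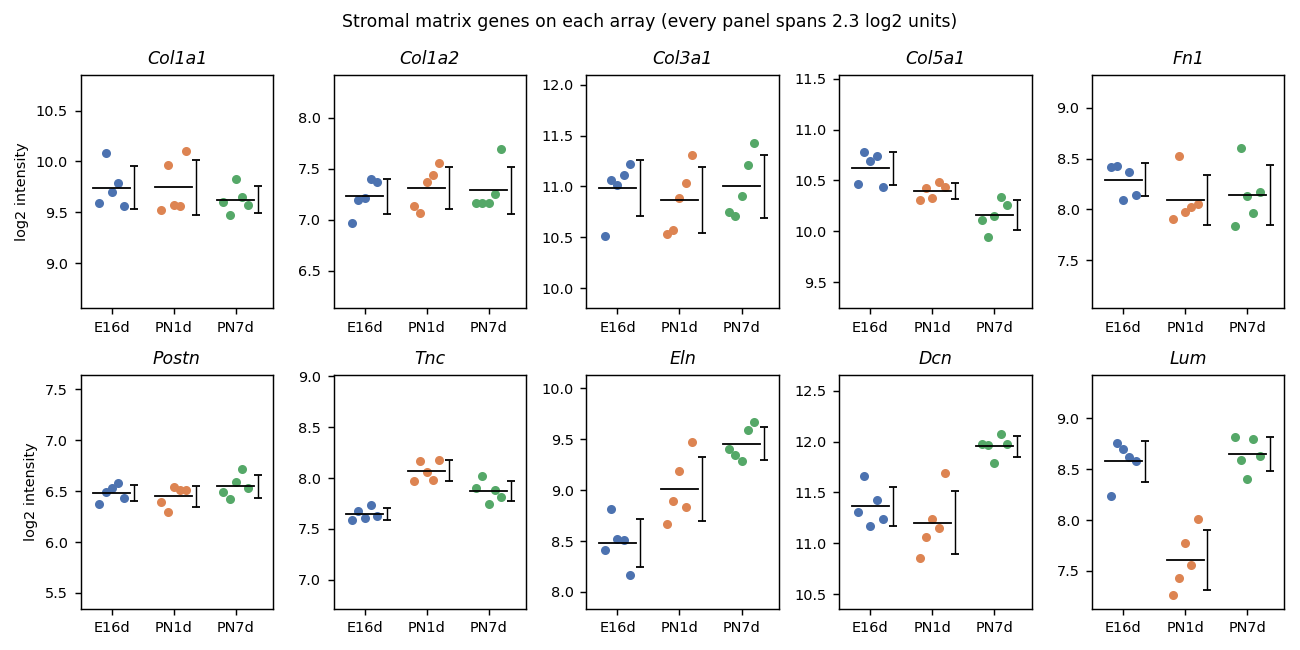
Log2 intensity (y axis) of each of the 10 stromal matrix genes on every array, by age (x axis, 5 arrays each); lines are means and bars are standard deviations. Lum dips at PN1d, Eln rises at each age, and the clouds of Col1a1, Col1a2, Col3a1, Fn1 and Postn overlap at all ages.

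**Figure D2:**
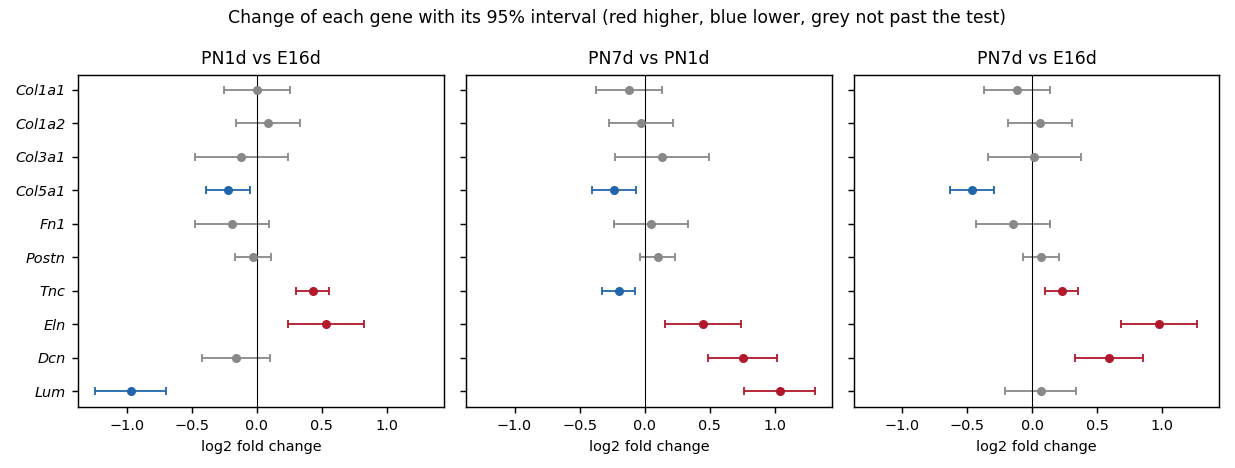
Log2 fold change (x axis) of each stromal matrix gene (y axis) in the 3 comparisons of ages, with 95% intervals from limma. Intervals of Col1a1, Col1a2, Col3a1, Fn1 and Postn cross 0 in every panel.

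Of the fibrillar collagens, only Col5a1 passed the test in any comparison. Col1a1, on chromosome 11 (94936224 to 94953042), encodes the alpha-1 chain of type I collagen. Its log2 intensity on E16d arrays 1 to 5 was 9.59, 10.08, 9.70, 9.78 and 9.56. On the PN1d arrays it was 9.52, 9.97, 9.58, 9.57 and 10.10, and on the PN7d arrays 9.60, 9.48, 9.83, 9.65 and 9.57. The groups overlapped throughout, and PN1d arrays 2 and 5 lay above the other 3 of their age. The log2 fold change was 0.00 (95% interval -0.25 to 0.26, adjusted p = 0.987) from E16d to PN1d and -0.12 (-0.37 to 0.13, adjusted p = 0.401) from E16d to PN7d.
Col1a2, on chromosome 6 (4505618 to 4541543), encodes the partner chain of the same collagen. It read 6.96, 7.20, 7.22, 7.40 and 7.37 at E16d. It read 7.13, 7.07, 7.37, 7.44 and 7.56 at PN1d, and 7.16, 7.17, 7.16, 7.25 and 7.70 at PN7d. PN7d array 5 stood well above the other 4 of its age, and the groups overlapped. The change from E16d to PN7d was 0.06 (-0.19 to 0.31, adjusted p = 0.679).
Col3a1, on chromosome 1 (45311538 to 45349706), encodes the type III chain, which is common in soft and growing tissue. It read 10.52, 11.07, 11.01, 11.11 and 11.22 at E16d. The PN1d arrays read 10.53, 10.57, 10.88, 11.03 and 11.31, and the PN7d arrays 10.75, 10.71, 10.90, 11.21 and 11.43. E16d array 1 stood below the rest of its age, and the groups overlapped. The SD within an age (0.274, 0.326 and 0.312) was wide against a change from E16d to PN7d of 0.02 (-0.34 to 0.37, adjusted p = 0.943). A second Col3a1 probe, dimmer and close to the filter, gave -0.07.
Col5a1, on chromosome 2 (27886381 to 28039510), encodes a chain of collagen V. It read 10.46, 10.78, 10.69, 10.74 and 10.44 at E16d, 10.31, 10.42, 10.33, 10.48 and 10.44 at PN1d, and 10.11, 9.95, 10.15, 10.33 and 10.26 at PN7d. The 5 PN7d arrays lay below all 5 of E16d, while PN1d overlapped both other ages. Col5a1 fell by 0.46 on the log2 scale from E16d to PN7d (1.38-fold, SE 0.08, adjusted p = 8.94e-05). It was lower at PN1d than at E16d (log2 fold change -0.22, adjusted p = 0.0300) and lower again at PN7d than at PN1d (-0.24, adjusted p = 0.0242), a fall at both steps that 9.40% of all genes showed. The first of these calls was lost without E16d array 2, 3 or 4 or PN1d array 1 or 3 (adjusted p 0.0670 to 0.0841), and the second without PN1d array 4 (0.0599) or PN7d array 2 (0.0674).

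Among the glycoproteins, Tnc changed, and Fn1 and Postn did not pass the test at any age. Fn1, on chromosome 1 (71585473 to 71653280), encodes fibronectin, which hepatocytes also release into plasma. It read 8.42, 8.43, 8.09, 8.37 and 8.14 at E16d, 7.91, 8.52, 7.97, 8.02 and 8.05 at PN1d, and 7.84, 8.60, 8.13, 7.96 and 8.17 at PN7d. Array 2 was the highest at each age, at E16d only just above array 1 (8.43 against 8.42), and the groups overlapped. The log2 fold change was -0.19 (-0.48 to 0.09, adjusted p = 0.257) from E16d to PN1d and -0.15 (-0.43 to 0.14, adjusted p = 0.350) from E16d to PN7d, and a second probe past the filter gave -0.03 and 0.04. Liver markers summed to 1558 in intensity on E16d array 2, to 14497 on PN1d array 2 and to 1458 on PN7d array 2. The last was the lowest sum of any array. Their part in the Fn1 values was not tested. With the level of adipocyte markers in the model the change from E16d to PN7d was 0.20 (adjusted p = 0.319).
Postn, on chromosome 3 (54359267 to 54391041), encodes periostin, a matricellular protein that binds collagen. It lay close to the filter of 6.22 log2 on every array, between 6.37 and 6.58 at E16d, 6.29 and 6.54 at PN1d and 6.42 and 6.72 at PN7d. The ranges overlapped, and the change from E16d to PN7d was 0.07 (-0.07 to 0.20, adjusted p = 0.363). Fold changes of probes this near to background are understated on such arrays.
Tnc, on chromosome 4 (63959785 to 64047015), encodes tenascin-C, a glycoprotein of developing mesenchyme. It read 7.59, 7.68, 7.61, 7.74 and 7.63 at E16d. It read 7.97, 8.17, 8.06, 7.98 and 8.18 at PN1d and 7.90, 8.02, 7.75, 7.89 and 7.82 at PN7d. All PN1d and all PN7d arrays lay above all E16d arrays, and PN1d and PN7d overlapped. Tnc rose by 0.43 (1.34-fold, SE 0.06, adjusted p = 1.94e-05) from E16d to PN1d and was then lower by a log2 fold change of -0.20 (SE 0.06, adjusted p = 0.0115) at PN7d than at PN1d, which left it 0.23 above E16d (adjusted p = 0.00300). A rise followed by a fall, each past the test, was seen for 3.62% of all genes. The steps differed from each other by -0.63 (adjusted p = 0.000302), a test that 27.4% of all genes passed. With the level of adipocyte markers in the model the later step was -0.19 and did not pass (adjusted p = 0.118). These Tnc values come from 1 of 6 probes: the other 5 lay below the filter, and their changes ran from -0.02 to 0.09.

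Eln, on chromosome 5 (134702595 to 134747368), encodes elastin and showed the largest net change of the 10 genes. It read 8.41, 8.82, 8.52, 8.51 and 8.16 at E16d. The PN1d arrays read 8.67, 8.89, 9.19, 8.84 and 9.47, and the PN7d arrays 9.40, 9.35, 9.29, 9.59 and 9.67. Every PN7d array lay above every E16d array, whereas PN1d overlapped E16d at its low end and PN7d through array 5. Eln was higher by 0.53 (1.44-fold, SE 0.14, adjusted p = 0.00475) at PN1d than at E16d, by a further 0.45 (1.36-fold, SE 0.14, adjusted p = 0.0146) at PN7d than at PN1d, and by 0.97 (1.97-fold, SE 0.14, adjusted p = 1.04e-05) over the whole interval. A rise at both steps was seen for 8.44% of all genes. The steps did not pass the test of a difference from each other (-0.08, 95% interval -0.59 to 0.42). The rise from PN1d to PN7d was 0.38 (SE 0.20, adjusted p = 0.173) with the level of adipocyte markers in the limma model. It was 0.45 as before (SE 0.16, adjusted p = 0.0576) with Student's t-test, adjusted over all genes tested. The methods of the study name a t-test in general and do not say that the arrays were tested by it.

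The proteoglycans Dcn and Lum are neighbours on chromosome 10, 47337 bases apart (97479500 to 97518163 and 97565501 to 97572703), and differed in how far they moved at each step. Lum encodes lumican, a keratan sulfate proteoglycan of collagen fibrils. It read 8.24, 8.76, 8.70, 8.62 and 8.59 at E16d, 7.26, 7.43, 7.78, 7.55 and 8.01 at PN1d, and 8.82, 8.59, 8.40, 8.79 and 8.63 at PN7d. The 5 PN1d arrays lay below all 10 others, and E16d and PN7d overlapped. Lum fell by 0.97 (1.96-fold, SE 0.13, adjusted p = 1.20e-05) from E16d to PN1d and rose by 1.04 (2.05-fold, SE 0.13, adjusted p = 8.16e-06) from PN1d to PN7d, with a net change of 0.07 (-0.21 to 0.34, adjusted p = 0.668). A fall followed by a rise, each past the test, was seen for 3.35% of all genes, and the steps differed by 2.01 (SE 0.22, adjusted p = 7.92e-06).
Dcn encodes decorin, a proteoglycan that binds collagen fibrils and TGF-beta. It read 11.31, 11.66, 11.17, 11.43 and 11.24 at E16d, 10.86, 11.06, 11.24, 11.15 and 11.69 at PN1d, and 11.97, 11.97, 11.78, 12.07 and 11.97 at PN7d. All PN7d arrays lay above all others, and PN1d overlapped E16d. From PN1d to PN7d Dcn rose by 0.75 (1.69-fold, SE 0.12, adjusted p = 0.000137), and over the whole interval by 0.59 (1.51-fold, SE 0.12, adjusted p = 0.000519). From E16d to PN1d its change was -0.16 (-0.42 to 0.10, adjusted p = 0.310). The steps of Dcn also differed from each other, by 0.92 (SE 0.22, adjusted p = 0.00475), in the same direction as those of Lum, although not past the test on 1 of the other Dcn probes (0.62, adjusted p = 0.0928). The Dcn change from E16d to PN1d passed the limma test as a fall of 0.28 (adjusted p = 0.0266) without PN1d array 5, which read highest of its age. It also passed on the dimmest of the 4 Dcn probes, which fell by 0.27 (limma, adjusted p = 0.0330).
The other 3 Dcn probes rose by 0.75, 0.53 and 0.37 from PN1d to PN7d, each past the test, and gave 0.53, 0.45 and 0.11 from E16d to PN7d, of which the last did not pass (adjusted p = 0.355). The level of adipocyte markers on an array was taken as the average intensity of Adipoq, Cidea, Cox8b and Ucp1. On the PN7d arrays it was 1782, 155, 482, 1155 and 860, against 59.7 to 63.3 on the other 10 arrays. With that level in the model the change of Dcn from E16d to PN7d was 0.54 (limma, adjusted p = 0.0227) and that of Eln 0.91 (adjusted p = 0.0015). The level varied widely only among the PN7d arrays. In any comparison with PN7d that includes it, age and adipocyte level therefore cannot be told apart.

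**Figure D3:**
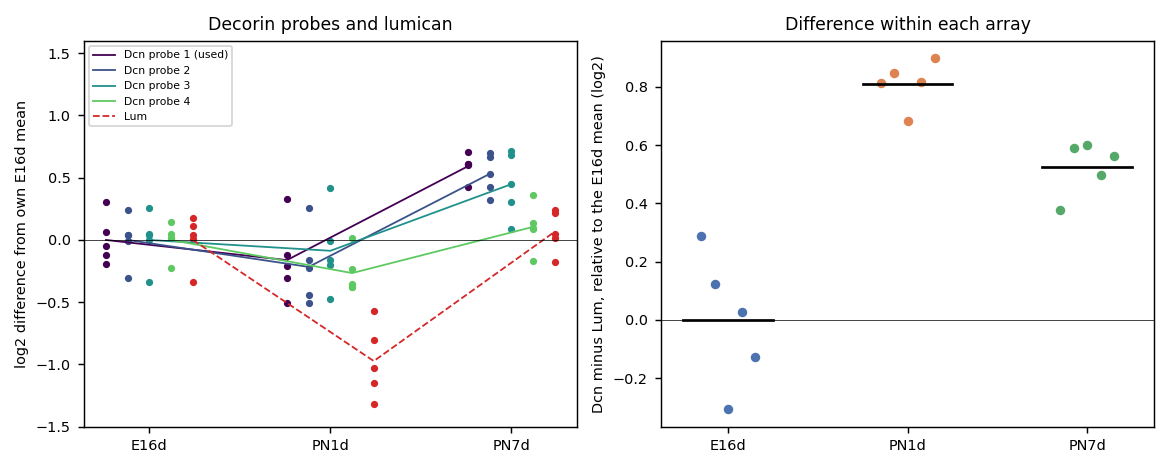
Left, the 4 Dcn probes and Lum on each array, as log2 difference (y axis) from the probe's own mean at E16d, by age; lines join means. Right, the Dcn minus Lum difference on each array relative to its E16d mean: the 3 ages do not overlap, with PN1d highest.

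Whether pairs of matrix genes changed unequally was tested on their log2 difference within each array, for 8 pairs in 3 comparisons, by a two-sided exact permutation test over all splits of the 10 arrays (smallest possible p 0.00794) with adjustment over the 24 tests. Of these, 8 passed. Dcn minus Lum shifted by 0.81 from E16d to PN1d, by 0.53 from E16d to PN7d and by -0.29 from PN1d to PN7d (exact permutation test, adjusted p = 0.0272 each). Col1a1 minus Eln shifted by -0.53 from E16d to PN1d and by -1.09 from E16d to PN7d (exact permutation test, adjusted p = 0.0272 each), and by -0.57 from PN1d to PN7d (adjusted p = 0.0476). Eln thus gained on Col1a1 at each step, as a ratio within arrays.
From E16d to PN1d, Fn1 minus Tnc shifted by -0.62 and Postn minus Tnc by -0.46 (exact permutation test, adjusted p = 0.0272 each). Both shifts rest on 1 of the 6 Tnc probes. The other 5 lay below the filter and changed by -0.02 to 0.08 at this step. Postn itself lay close to the filter. The chains of type I collagen, Col1a1 and Col1a2, each read by 1 probe, were not found to change unequally. Their shifts were -0.08, -0.18 and -0.10 (exact permutation test, adjusted p 0.504 to 0.696). Without PN7d array 1 or PN7d array 4, 5 of the 24 tests passed. Dcn minus Lum from E16d to PN7d was then lost, as it was without PN7d array 5, and so was the shift from PN1d to PN7d without PN7d array 1 or 4 (exact permutation test, adjusted p = 0.0544). The shift of Col1a1 minus Eln from PN1d to PN7d was lost without any 1 of arrays 1, 2, 4 and 5 of either age (exact permutation test, adjusted p 0.0571 to 0.0847).

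Arrays of one age differed more in the matrix genes than in most genes. The standard deviation of log2 values between arrays had a median over the 10 genes of 0.183 for E16d, 0.257 for PN1d and 0.155 for PN7d, against 0.0816, 0.0993 and 0.122 over all genes tested. PN1d array 5 read highest of its age for 7 of the 10 genes, where it did so for 21.9% of all genes. PN1d array 1 read lowest for 8 of the 10, against 17.7% of all genes, and E16d array 2 read highest for 6, against 18.5%.
After the mean of each age was taken away, the deviations of Col1a2 and Col3a1 correlated at r = 0.91 over the 15 arrays, those of Eln and Dcn at 0.87 and those of Dcn and Lum at 0.78. Col1a1 and Col1a2 correlated at 0.05. Fn1 and Postn correlated at -0.54. These are descriptions over 15 arrays that were normalized together. Over the 15 arrays with age left in, Dcn and Lum correlated at 0.71.

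**Figure D4:**
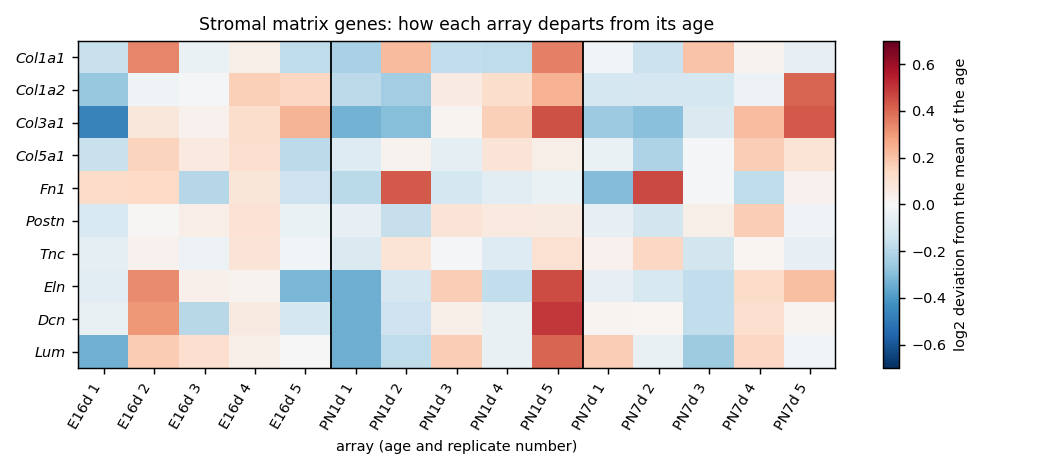
Deviation of each stromal matrix gene (rows) on each array (columns) from the mean of its age, in log2 units (colour). PN1d array 5 is above its age for most genes and PN1d array 1 below.

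Over all 15 arrays, the genes most like Col1a1 in pattern were Scamp1 (r = 0.74), Aplp2 (0.71), Zfp592 (0.71), Cacna1c (0.67) and Slf2 (0.67), none of them a matrix gene. The genes most like the mean of the 10 standardized matrix genes were Lrp1 (r = 0.83), Col16a1 (0.83), Rgs3 (0.81), Slc44a2 (0.72) and Vcl (0.71). Col16a1 encodes a collagen associated with fibrils, and Lrp1 a receptor that takes up matrix proteases and other ligands.

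Further matrix genes were read from lists, whose counts stand beside the 32.3% of all genes that were higher and the 32.2% that were lower at PN7d than at E16d, with a median change of 0.00. Of 8 further interstitial collagens tested, 6 were higher and 1 was lower at PN7d (median log2 fold change 0.30). Col15a1, a collagen at the border of basement membranes, rose by 1.10 (SE 0.07) and Col6a1, a chain of the beaded-filament collagen VI, by 0.89 (SE 0.10; 0.45 on a second bright probe). Col2a1, the collagen of cartilage, was not above the median of all values on any PN7d array and was at least 2.02-fold lower there. Of 11 elastic fibre and microfibril genes besides Eln, 5 rose and 6 fell (median -0.16). Among the 5, Ltbp2 (means of 6.18, 6.16 and 6.74 log2 in order of age) passed the filter on dim probes only through PN7d. The filter thus fixed its direction. Ltbp4 and Ltbp3, which bind latent TGF-beta, rose by 1.00 and 0.98 (SE 0.08 and 0.09), while Ltbp1 changed by -0.73 (SE 0.12) and the microfibril gene Fbn2 by -0.59 (SE 0.09). Second probes gave smaller values, 0.20 for Ltbp4 and -0.01 for Ltbp1, and 1 of the other Ltbp3 probes gave 0.19.
Of 14 other proteoglycans and matricellular genes, 10 were higher and 2 lower at PN7d (median 0.49). Podn read 5.94, 6.08 and 6.86 log2 at E16d, PN1d and PN7d in the mean, and Tnxb 6.07, 6.16 and 6.72. Both passed the filter on dim probes only through PN7d. The filter thus fixed their direction, and their part in the count and the median is no separate evidence. Prelp, a small leucine-rich proteoglycan of the same family as Dcn and Lum, rose by 1.89 (SE 0.18) and had not passed the test at PN1d (-0.09, adjusted p = 0.698). Ccn2, a matricellular protein induced by TGF-beta, rose by 1.02 (SE 0.16). Ecm1 changed by -1.01 (SE 0.07; -0.28 on a second probe) and Ogn by -0.20 (SE 0.08, adjusted p = 0.0473), and the Ogn call was lost in 15 of the 23 alternatives, with an adjusted p of up to 0.160. A second Ogn probe past the filter gave a larger change, -0.55.
Of 18 genes that process or cross-link collagen, 4 were higher and 7 lower at PN7d (median -0.08). Among the 4, Creb3l1 (means of 6.12, 6.03 and 6.23 log2 in order of age) likewise passed the filter only through PN7d. Its direction was therefore also fixed by the filter. The cross-linking enzymes diverged: Loxl1, which acts on elastin, rose by 1.02 (SE 0.08), whereas Lox, which acts on collagen and elastin, was higher by 0.23 at PN1d (adjusted p = 0.0104) and lower by a log2 fold change of -0.67 (SE 0.07) at PN7d than at E16d. Pcolce, an enhancer of procollagen cleavage, rose by 0.51 (SE 0.08), and P4ha1, a prolyl hydroxylase, changed by -0.50 (SE 0.07). Of 14 matrix proteases and inhibitors, 9 were higher and 3 lower at PN7d (median 0.44). Ctsk, a collagen-degrading cathepsin, rose by 1.27 and Htra1 by 0.92 (SE 0.07 each), and Timp1, an inhibitor of matrix metalloproteinases, changed by -0.63 and the collagenase Mmp14 by -0.41 (SE 0.07 each).
Of 11 matrix receptors, 4 were higher and 2 lower at PN7d (median 0.11), among them Itga8 (0.70, SE 0.20) and Ddr1 (0.55, SE 0.07) and, in the other direction, Itga11 (-0.33, SE 0.06) and Itga9 (-0.25, SE 0.05). With the adipocyte level in the model Itga8 no longer passed (adjusted p = 0.167). Of 11 TGF-beta ligands, receptors and Smads, 3 were higher and 3 lower (median 0.02), with Tgfbr2 at 0.79 and Eng at 0.71 (SE 0.08 each), Smad2 at -0.44 (SE 0.07) and Smad4 at -0.38 (SE 0.06). All named changes of these lists passed at PN7d against E16d in the limma fit with an adjusted p under 0.05.

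**Figure D5:**
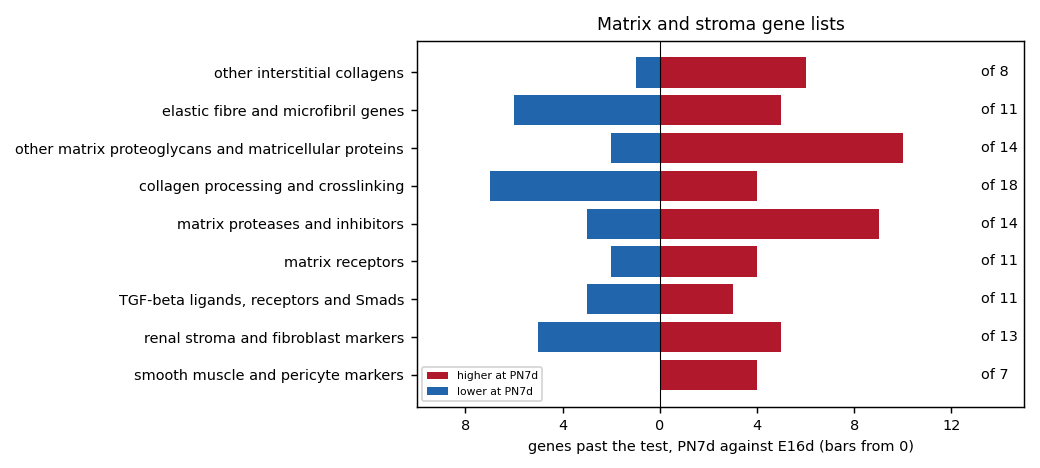
Number of genes higher (red, right of 0) or lower (blue, left of 0) at PN7d than at E16d in each list of matrix and stroma genes (y axis), with the number tested. Proteoglycans and proteases hold more rises than falls, and collagen processing genes more falls. Among the rises, Podn, Tnxb, Ltbp2 and Creb3l1 passed the filter on dim probes only through PN7d.

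Of 13 renal stroma and fibroblast markers, 5 were higher and 5 lower at PN7d than at E16d (median -0.04). Foxd1 and Aldh1a2, genes of the embryonic stroma, changed by -1.14 (SE 0.10) and -1.07 (SE 0.07), while Mgp, a matrix inhibitor of calcification, rose by 1.20 (SE 0.08) and Smoc2 by 0.51 (SE 0.09). The summed intensity of the 14 markers on the array ran from 15221 to 16146 at E16d, 14757 to 16105 at PN1d and 14592 to 15840 at PN7d, so their total overlapped between ages. Bright genes such as Vim and Cxcl12 (12.36 and 11.57 log2 at E16d) weigh most in such a sum, and it does not measure how much stroma was present. Of 7 smooth muscle and pericyte markers, 4 were higher at PN7d and 3 did not pass (median 0.25), with Smtn at 1.12 (SE 0.09; 0.17 on a second probe) and Mylk at 0.57 (SE 0.09).
Markers of other tissues also moved with age. The 4 adipocyte markers tested were higher at PN7d, Ucp1 at least 21.1-fold and Cox8b at least 6.07-fold, while 4 others of the 9 on the array (Elovl3, Fabp4, Lep and Retn) were not above the median of all values on any array. Ucp1 and Cox8b passed the filter on dim probes only through PN7d, with means of 5.94 and 5.90 log2 at E16d and 5.99 and 5.92 at PN1d. The filter thus fixed their direction, and the count of markers higher at PN7d is no separate evidence. Of 8 liver markers, 6 were higher at PN1d than at E16d, and their sum over the 12 on the array ran from 1558 to 2025 at E16d, 1992 to 14497 at PN1d and 1458 to 1954 at PN7d, while Alb, Apoh and Fgb were not above the median on any array. Kidney epithelium markers rose in 7 and fell in 2 of the 9 tested at PN7d against E16d (median 1.20), with Umod, a gene of the loop of Henle that encodes uromodulin, at 3.55 (SE 0.13) and Wt1, a gene of nephron progenitors and podocytes, at -0.59 (SE 0.09). Their summed intensity ran from 14652 to 16969 at E16d, 25841 to 28276 at PN1d and 35340 to 38329 at PN7d. Of 7 endothelial markers, 5 were higher at PN7d and 2 did not pass (median 0.21), with Pecam1 at 0.56 (SE 0.08) and Flt1 at 0.44 (SE 0.10). Of 5 erythroid markers, 3 were lower at PN1d than at E16d, and at PN7d 2 were lower and 1 higher, with Hbb-bt, a globin, at -2.28 (SE 0.55) and Alas2, of heme synthesis, at -1.37 (SE 0.23). The PN7d arrays overlapped those of E16d for Hbb-bt, and with the adipocyte level in the model its change was -0.89 and did not pass (limma, adjusted p = 0.277). Skeletal muscle, adrenal cortex and macrophage markers, of which 4, 3 and 6 were tested, each held 1 gene that was higher and 1 that was lower at PN7d.
The part of these tissues and cell types in the values of Lum, Dcn and Eln was not tested. The fits with the adipocyte level do not measure the adipocyte part, because that level varied widely only among the PN7d arrays and cannot be told apart from age.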

How the data were processed

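The deposited table holds log2 intensities that the authors obtained from the bead scanner by quantile normalization; the scale was settled from the values themselves (the highest would exceed 65535 if read as a natural log). A second table of 30 columns could not be tied to samples and was not used, so detection p-values were not applied. Probes were named through the platform annotation; 11586 probes with 1 symbol exceeded the overall median (6.22 log2, intensity 74.5) in the mean of some age, and the brightest stood for a gene, with the other probes of a member as a check. Limma 3.58.1 in R 4.3.3 fitted the 3 ages to 15 arrays, and was first tested on simulated data. Precision is limited by the number of arrays. Col1a1, Col1a2, Col5a1, Eln and Lum had 1 probe each, so no other probe could check them. The 10 genes, the gene lists and the tests were chosen with earlier results of these data known, so counts over lists are given beside all genes without a test of the list. Named list genes are the 2 largest rises and 2 largest falls at PN7d against E16d past the test (at most 2 in all for smooth muscle and other cell types), and the 5 genes most correlated with Col1a1 and with the mean matrix gene. Where no array of an age exceeded that median, the change is given as a bound against it. Errors are standard errors (SE) of the model, and replicates are the arrays numbered in the deposited labels; these numbers carry no stated pairing. The alternatives covered the filter and probes, the model of the variance, a fit of only the ages compared, a replicate block and normexp correction (offset 16). They also covered Student's t-test with the same adjustment, the adipocyte level as a covariate and leaving out each array. The methods of the study name that t-test in general, not for the arrays. The rat arrays of the study were not analysed here. Python 3.11.15 with matplotlib 3.10.9 drew the figures.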

Additional observations from a re-analysis of the deposited data

Results flagged for a closer look

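Arrays that stood apart from the other 4 of their age were looked for in 186 groups of a gene and an age, where chance flags about 5% of groups, and 11 were found, 2 of them among the 30 groups of the matrix genes. Col1a2 read 7.70 on PN7d array 5, where the next highest array read 7.25. Fn1 read 8.52 on PN1d array 2, where the next read 8.05, and Afp, the fetal serum protein of liver, read 11.16 on the same array against 9.67 on the next. On PN1d array 3, Ltbp4 read 8.61 and Wt1 read 11.12. On PN1d array 5, Ecm1 read 9.74 and Umod read 9.74, and on PN1d array 1, Loxl1 read 10.25. Among the E16d arrays, Ecm1 read 9.59 on array 4, and on array 5 Eng read 7.66 and Pecam1 read 7.84.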

How the results depend on the processing

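Of 600 values for the 10 genes with 1 array left out, 562 kept their direction and side of the threshold, 7 no longer passed, 1 newly passed and 30 changed sign; of 384 under the other alternatives, 343, 14, 1 and 26 did so. Of the 26, 11 were of Tnc, which passed, on probes below the filter: -0.0098, -0.022 and -0.015 from E16d to PN1d, -0.0090 from E16d to PN7d, 0.069, 0.013, 0.021 and 0.045 from PN1d to PN7d, and 0.079, 0.035 and 0.061 for the difference of steps. The other 15 and all 30 with 1 array left out were of changes that passed neither way. On other probes Fn1 gave 0.044 from E16d to PN1d, 0.042 from E16d to PN7d, -0.038 and -0.056 from PN1d to PN7d and -0.028 and -0.10 for the difference of steps; Col3a1 gave -0.075, -0.068 and -0.062 for the last 3 of these and Postn -0.047 and -0.013 from E16d and from PN1d to PN7d. From E16d to PN7d, Col3a1 gave -0.030 on the mean of its probes, and Col3a1, Fn1 and Lum gave -0.021, 0.20 and -0.11 with the adipocyte level in the model. With 1 array left out, the changes that turned ran from -0.086 to 0.088 for Col1a1 and -0.058 to 0.0081 for Postn from E16d to PN1d, from -0.044 to 0.10 for Col1a2, -0.10 to 0.088 for Col3a1 and -0.018 to 0.13 for Lum from E16d to PN7d, and from -0.13 to 0.036 for Col1a2 and -0.069 to 0.15 for Fn1 from PN1d to PN7d. The differences of steps ran from -0.24 to 0.053 for Col1a1, -0.23 to 0.013 for Col1a2, -0.056 to 0.042 for Col5a1 and -0.25 to 0.15 for Eln. Of the pairs, Col1a1 minus Col1a2 ran from -0.20 to 0.013 from E16d to PN1d and -0.18 to 0.020 from PN1d to PN7d, Col1a1 minus Col3a1 from -0.0078 to 0.21 from E16d to PN1d, and Col1a1 minus Fn1 from -0.042 to 0.18 from E16d to PN7d. With the adipocyte level in the model, 3 of the 10 genes passed from PN1d to PN7d (Tnc and Eln were lost), and 4 of the 8 further collagens passed from E16d to PN7d. Leaving out 1 array gave 3 to 5 genes called from E16d to PN1d, 4 from E16d to PN7d and 4 to 5 from PN1d to PN7d, and a median from E16d to PN7d of -0.01 to 0.09. Same-numbered arrays' deviations correlated at -0.23 to 0.21, and the array of the same number was the best match in 9 of 30 cases looked at. Such weak correlations cannot show whether the numbers carry a pairing or a batch. With the replicate number as a block 4, 4 and 5 genes passed as before. Of the 24 pair tests, 5 to 9 passed with 1 array left out, and 0 with the replicate block, where the exact sign-flip permutation test over the pairs has too few signs to pass the threshold. The smooth muscle count at PN1d was 2 in place of 4 without E16d array 1, 3 or 5, PN1d array 2, 3 or 5 or PN7d array 1, or with no filter. The cause of these shifts was not tested. Dim probes such as Postn's lie close to background, which limits what they can show.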
